A study of Mus musculus with 80 samples.

Results

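Fasting at ZT14 was described in RNA bound to the tagged ribosomes of AgRP neurons, in 5 libraries from fasted and 4 from ad libitum fed mice, 9 of the 80 libraries of the series. The libraries were chosen by their titles alone, and no measured value entered the choice. All 9 carry the genotype AGRP-Cre;RiboTag, in which AgRP-Cre switches on an epitope-tagged ribosomal protein, so that RNA on the ribosomes of Cre-expressing cells can be pulled down from the arcuate hypothalamus. ZT14 is 14 hours after lights on. The labels give the fasted mice an effective fast of 24 hours and the others an ad libitum diet. The other RiboTag libraries, 5 fasted and 3 ad libitum at ZT2, entered the same statistical fit. The tag follows Cre and not the present level of Agrp, and an immunoprecipitate also carries unbound RNA of neighbouring cells. The labels give no strain, age or sex, and they do not say whether each library came from 1 mouse, from pooled mice or from separate cultures or tissues, so each p-value rests on variation among libraries that may be technical.

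AgRP neurons of the arcuate nucleus release AgRP, NPY and GABA and drive feeding. They sense a fast through falling leptin and insulin and rising ghrelin and glucocorticoid. Insulin acts through the receptor Insr, Akt kinases and FoxO factors, and growth factor and energy signals meet at mTOR, which sets the rate of protein synthesis. RNA bound to ribosomes reflects both how much of a transcript is present and how much of it is engaged in translation.

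Values are the authors' normalised counts, each a gene's read count divided by a size factor of its library. Differences are fasted minus ad libitum on log2(value + 1), with standard errors from limma and p-values adjusted by the Benjamini-Hochberg method across the 15444 genes that were tested. A gene is said to have risen or fallen, or to be called, where the adjusted p was under 0.05. The reads behind a fasted library numbered 12.9 to 21.6 M and those behind an ad libitum library 18.9 to 23.1 M, a difference with an exact two-sided permutation p of 0.0556, where 0.00794 was the smallest possible. Genes above 0 numbered 14905 to 17062 and 16037 to 16750 (exact permutation p = 0.421).

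Some libraries stood apart before any comparison was made. Fasted replicate 3 lay far out on the first principal component of the 17 RiboTag libraries (137, against -33.1 to 13 for the other 4 fasted libraries), with the highest summed endothelial and mural markers (61791, against 3322 to 45681 in the other 8). Fasted replicate 4 had the lowest summed level of the 28 AgRP neuron identity and peptide genes (50556, against 111829 to 343931) and the highest summed oligodendrocyte markers (102528). Ad libitum replicate 3 also had high oligodendrocyte (91819) and microglial markers (29612). The astrocyte markers summed to 25167 to 116480 in fasted and 27423 to 110112 in ad libitum libraries, and in none of the 9 was a member of that list at 0. The groups overlapped in the summed level of every marker list of another cell type. In the lists of POMC neurons, other neurons, astrocytes, tanycytes, oligodendrocytes and their precursors, microglia and endothelium, limma called 1 member, the precursor marker C1ql1. Of all genes tested, limma called 5.29%. Because the RNA is bulk, a smaller share of ribosomes from 1 cell type and less RNA per cell cannot be told apart. With fasted replicates 3 and 4, and 2 of the ZT2 libraries that also stood apart, left out, counts are given beside the results as the set without the libraries that stood apart, which was chosen after the data were seen.

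At ZT14, 641 genes were higher after fasting (4.15% of those tested) and 176 were lower (1.14%), 5.29% in all. Those that rose included Vgf, a secreted neuropeptide precursor, the glucocorticoid target Fkbp5 and the cell-cycle inhibitor Cdkn1a. Those that fell included the insulin receptor Insr, the clock gene Per3, the kinase Mtor and the heat shock genes Hspa1a and Hspa1b. DESeq2 called 999 higher and 487 lower. The lower count rested on single libraries, at 43, 69, 78 or 49 without ad libitum replicate 1, 2, 3 or 4 and at 86, 295 or 105 without fasted replicate 1, 2 or 5. Without the libraries that stood apart the counts were 955 higher (6.38%) and 541 lower (3.62%). The groups did not overlap for 945 genes with all 5 fasted libraries above all 4 others (6.12%) and for 1236 with all 5 below (8%). The median difference over all genes was -0.16.

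The higher genes and the lower genes went with different transcript features. Of the 633 higher genes matched to the annotation, 519 hold a stretch of 100 bases with more than 80% G or C, and the median of this highest local GC content was 86% in higher genes against 72% in all genes tested. The lower genes had long transcripts of many exons, with a median of 6266 bases and 21 exons against 3364 bases and 8 exons. The same stretch in a coding sequence is shown for 3 strong risers with a coding window of at least 85% GC, with runs of 5 or more G or C in capitals, read 5′ to 3′ on the coding strand from GENCODE M21 on GRCm38. They are the transcription factor gene Cebpb (chr2:167689552-167689651, plus strand), the mRNA export factor gene Alyref (chr11:120598179-120598278, minus strand) and the pacemaker channel gene Hcn2 (chr10:79716675-79716774, plus strand). For contrast follow the richest coding windows of Fkbp5 (chr17:28402645-28402744, minus strand) and Cdkn1a (chr17:29098638-29098737, plus strand), which rose without such a stretch, and of the elongation factor genes Eef2 (chr10:81181279-81181378, plus strand) and Eef1a1 (chr9:78479649-78479748, minus strand), which fell.
Cebpb: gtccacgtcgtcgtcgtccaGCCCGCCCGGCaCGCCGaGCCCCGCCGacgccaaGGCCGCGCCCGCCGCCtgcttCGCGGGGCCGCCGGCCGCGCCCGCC
Alyref: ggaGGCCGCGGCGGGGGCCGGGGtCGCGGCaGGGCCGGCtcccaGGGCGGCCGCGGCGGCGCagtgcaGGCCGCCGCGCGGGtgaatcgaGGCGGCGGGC
Hcn2: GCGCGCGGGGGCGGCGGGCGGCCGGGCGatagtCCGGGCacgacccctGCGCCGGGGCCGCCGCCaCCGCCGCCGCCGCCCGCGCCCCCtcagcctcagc
Fkbp5: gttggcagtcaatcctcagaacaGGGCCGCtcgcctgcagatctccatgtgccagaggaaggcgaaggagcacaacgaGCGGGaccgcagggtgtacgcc
Cdkn1a: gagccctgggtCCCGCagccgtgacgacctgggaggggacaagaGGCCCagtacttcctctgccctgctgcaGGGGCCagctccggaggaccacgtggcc
Eef2: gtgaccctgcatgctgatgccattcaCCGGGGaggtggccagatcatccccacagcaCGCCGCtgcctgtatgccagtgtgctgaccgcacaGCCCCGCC
Eef1a1: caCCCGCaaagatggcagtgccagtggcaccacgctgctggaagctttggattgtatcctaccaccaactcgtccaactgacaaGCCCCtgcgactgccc
The capitals take up 66 to 76 of the 100 bases in the first 3 windows and 10 to 20 in the last 4.

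The share of genes that rose stayed near 1% for every range of local GC content up to 80%, then reached 9.7% at 80 to 85%, 31.8% at 85 to 90% and 35.9% above 90%. Up to 80%, 114 of 12190 genes (0.935%) were higher and 158 lower. Over 80%, 519 of 3035 (17.1%) were higher and 17 lower. Part of this pattern was also seen between libraries that are not labelled fasted. Control libraries of genotype WT;BMAL1fx, 2 at ZT5 with no treatment given and 4 at ZT2 after PBS, are not RiboTag libraries. They differ by time of day and treatment, and their deposited names carry different prefixes, AGRP.BMALKO at ZT5 and NPY.LEPTIN.SAMPLES after PBS. The share of genes more than 2 higher at ZT5 was 7.25% over 80% local GC and 1.27% below. In RiboTag at ZT14 the shares of genes more than 2 higher were 13.2% and 1.02%. In sorted NPY-GFP cells at ZT14 they were 8.06% and 5.11% for fasted minus ad libitum and 0.588% and 1.89% for mice refed for 1 hour minus ad libitum, 2 comparisons that share their ad libitum libraries. Of the 641 higher genes, 77.2% were also higher in the ZT5 controls, and of the 176 lower genes 85.2% were also lower, against 63.6% with the same sign among all genes tested. Of the 2 ZT5 controls, the first had Hsd11b2 at the high level of the AGRP-Cre libraries, which goes against its label, and with the second alone the shares were 73.2%, 81.2% and 62.2%. Within RiboTag the fast and this library profile cannot be told apart. The ZT5 minus PBS difference is therefore given beside the gene groups and genes that the results turn on.

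**Figure D1:**
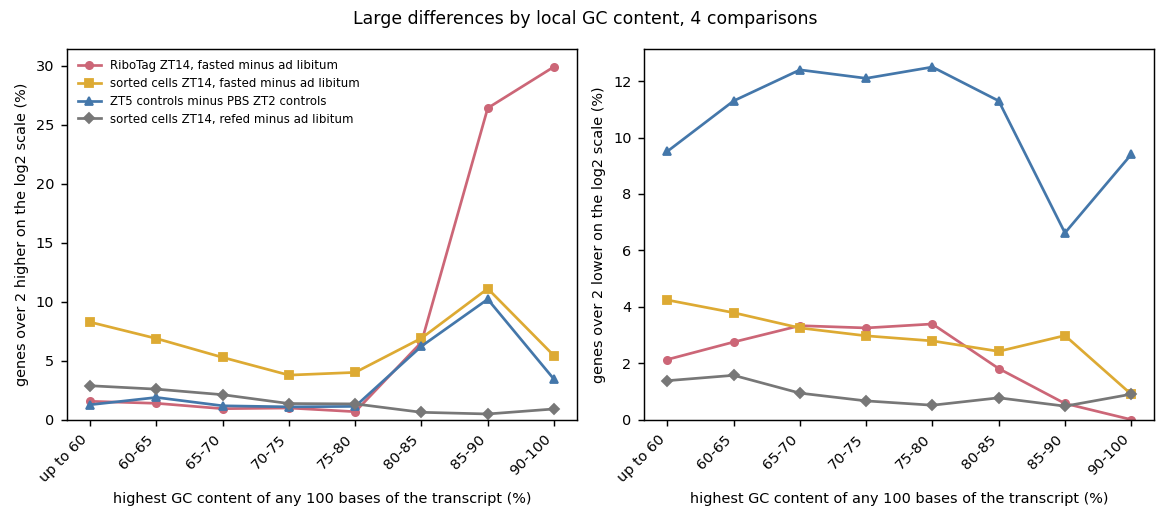
Share of genes more than 2 higher (left) or more than 2 lower (right) on the log2 scale, in percent of genes in each range of the highest GC content of any 100 bases of the transcript, for 4 comparisons. In RiboTag at ZT14 the share of higher genes is 0.67% at 75 to 80%, 26.4% at 85 to 90% and 29.9% above 90%.

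Alyref shows the profile in single values. It lay at 23, 28.3, 23.4 and 20.4 in ad libitum libraries and at 1579, 908, 1557, 545 and 842 in fasted ones. Every fasted library was far above every ad libitum one. The difference was 5.35 ± 0.36 (adjusted p = 3.41e-08). The 5 libraries of the ZT5 series, which are the 2 controls and 3 AgRP Bmal1 knockouts, lay between 1273 and 2173. The 4 PBS controls at ZT2 lay between 33.6 and 58.5. Cebpb lay between 1.29 and 5.11 in ad libitum and between 42.5 and 1565 in fasted libraries (6.56 ± 0.89, adjusted p = 9.14e-05). It lay between 433 and 630 in the ZT5 series and between 3.08 and 7.18 in the PBS controls. All 15 genes with the largest rise have groups that do not overlap, which a choice by size favours. Of all genes tested, 6.12% had all 5 fasted libraries above. Among the 15, 14 hold a stretch over 80% GC and 14 were higher in the ZT5 controls. Besides Cebpb, Alyref and Hcn2 they include Jund, which encodes an AP-1 subunit, the kinase genes Dapk3 and Gsk3a, the small GTPase gene Rab21, the NEDD8-conjugating enzyme gene Ube2m and Id4, an inhibitor of helix-loop-helix factors. The ribosomal RNA precursor Rn45s, a repeated locus whose counts depend on how multiply mapping reads were treated, fell from 73839 to 214779 in ad libitum to 3966 to 32736 in fasted libraries (-3.37 ± 0.93, adjusted p = 0.0425). In 10 of 20 alternative settings, 7 of them with a library left out, its adjusted p was over 0.05 (up to 0.137).

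The glucocorticoid receptor and response genes held 5 of 20 members that rose and none that fell, beside 4.15% and 1.14% of all genes tested. Like the other lists, this one was written with earlier results of these data known, so its count is only a description. Ddit4 is counted in the insulin, IGF and FoxO list as well. Their median difference was 0.60, against -0.16 over all genes tested. Their ZT5 minus PBS median was -1.28, the opposite sign. Fkbp5, a co-chaperone of the glucocorticoid receptor and a target of it, lay at 235, 249, 233 and 385 in ad libitum and at 1157, 2414, 1221, 1248 and 2657 in fasted libraries. The lowest fasted library was about 3 times the highest ad libitum one. The difference was 2.59 ± 0.53, or 6.02-fold (adjusted p = 0.00472), it was called in all 20 alternatives, and ZT5 minus PBS was -0.54. Cdkn1a, which encodes the cell-cycle inhibitor p21, lay at 201, 116, 258 and 51.8 in ad libitum and at 585, 1093, 3819, 1010 and 2265 in fasted libraries. The groups again did not overlap, with fasted replicate 3 highest. The difference was 3.40 ± 0.69 (adjusted p = 0.00443) and ZT5 minus PBS was -3.93. Ddit4, which encodes an inhibitor of mTOR complex 1, lay at 48.1, 26.4, 97.4 and 30.6 and at 125, 142, 760, 656 and 233. Its highest values were in the fasted replicates that stood apart, 3 and 4, and the difference was 2.69 ± 0.59 (adjusted p = 0.00804) with them and 1.84 (adjusted p = 0.0299) without the libraries that stood apart. The other 2 that rose, Klf9 (2.06 ± 0.50, adjusted p = 0.0175), a transcription factor gene named after its values were seen, and Cebpb, both hold a stretch over 80% GC. Their ZT5 minus PBS differences had opposite signs, -1.17 for Klf9 and 6.40 for Cebpb.

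Neither of the peptide genes that define these neurons was called. Agrp lay at 11701, 14691, 12098 and 14636 in ad libitum and at 30537, 16956, 51208, 2910 and 30639 in fasted libraries. The 4 other fasted libraries were above every ad libitum library, and fasted replicate 4 was below them all. The difference was 0.51 ± 0.91 (adjusted p = 0.828), and 1.19 (adjusted p = 0.455) without fasted replicate 4. Npy followed the same order, at 54579, 68410, 53246 and 64554 against 140465, 81212, 250190, 13123 and 147272 (0.57 ± 0.85, adjusted p = 0.782; 1.26 with an adjusted p of 0.351 without fasted replicate 4). Across the 28 AgRP neuron identity and peptide genes none rose and 1, Insr, fell, beside 4.15% and 1.14% of all genes tested. Of the 28, 4 had an unadjusted p under 0.05. edgeR called none higher and DESeq2 1. The median was -0.07. Fasted replicate 4 was set apart partly for its low sum of these same 28 genes, so a count without it is not independent of that choice. Without the libraries that stood apart 4 of the 28 rose, beside 6.38% of all genes tested. These were Otp, a transcription factor gene of these neurons (3.25 ± 0.43, adjusted p = 0.000197), Ptprn, which encodes a dense core vesicle protein (1.44 ± 0.32, adjusted p = 0.0114), the growth hormone receptor gene Ghr (1.20 ± 0.35, adjusted p = 0.0471) and Slc32a1, which encodes the vesicular GABA transporter (1.29 ± 0.38, adjusted p = 0.0494). The POMC gene of the neighbouring satiety neurons, Pomc, lay between 238 and 1058 and between 377 and 2048 (0.85 ± 0.83, adjusted p = 0.635).

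Vgf, which encodes a precursor of several secreted peptides, was the one called member among 12 granins and dense core vesicle cargo genes. Of all genes tested, 5.29% were called. The values of Vgf are given first. Vgf lay at 395, 722, 782 and 414 in ad libitum and at 17152, 13812, 3213, 3041 and 11864 in fasted libraries. The 2 lowest fasted values, in replicates 3 and 4, were still about 4 times the highest ad libitum value. The difference was 3.80 ± 0.73, or 14-fold (adjusted p = 0.00273), and it was called in all 20 alternatives. Vgf holds a stretch of 81% GC, and ZT5 minus PBS was -1.33. In sorted cells the Vgf differences from the same ad libitum libraries were 5.65 fasted and 4.51 refed. The part of the library profile in the rise of Vgf was not tested. The list median was 0.37. Without the libraries that stood apart 3 of 12 rose, beside 6.38% of all genes tested. They were Vgf, the granin gene Scg2 (1.17 ± 0.20, adjusted p = 0.00144) and Nucb2, which encodes the nesfatin precursor (1.31 ± 0.29, adjusted p = 0.0116). Of 11 peptide processing enzymes 1 rose, beside 4.15% of all genes tested. It was the convertase gene Pcsk6 (2.19 ± 0.45, adjusted p = 0.0047), which holds a stretch of 91% GC and was not called after correction for local GC content (adjusted p = 0.432).

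**Figure D2:**
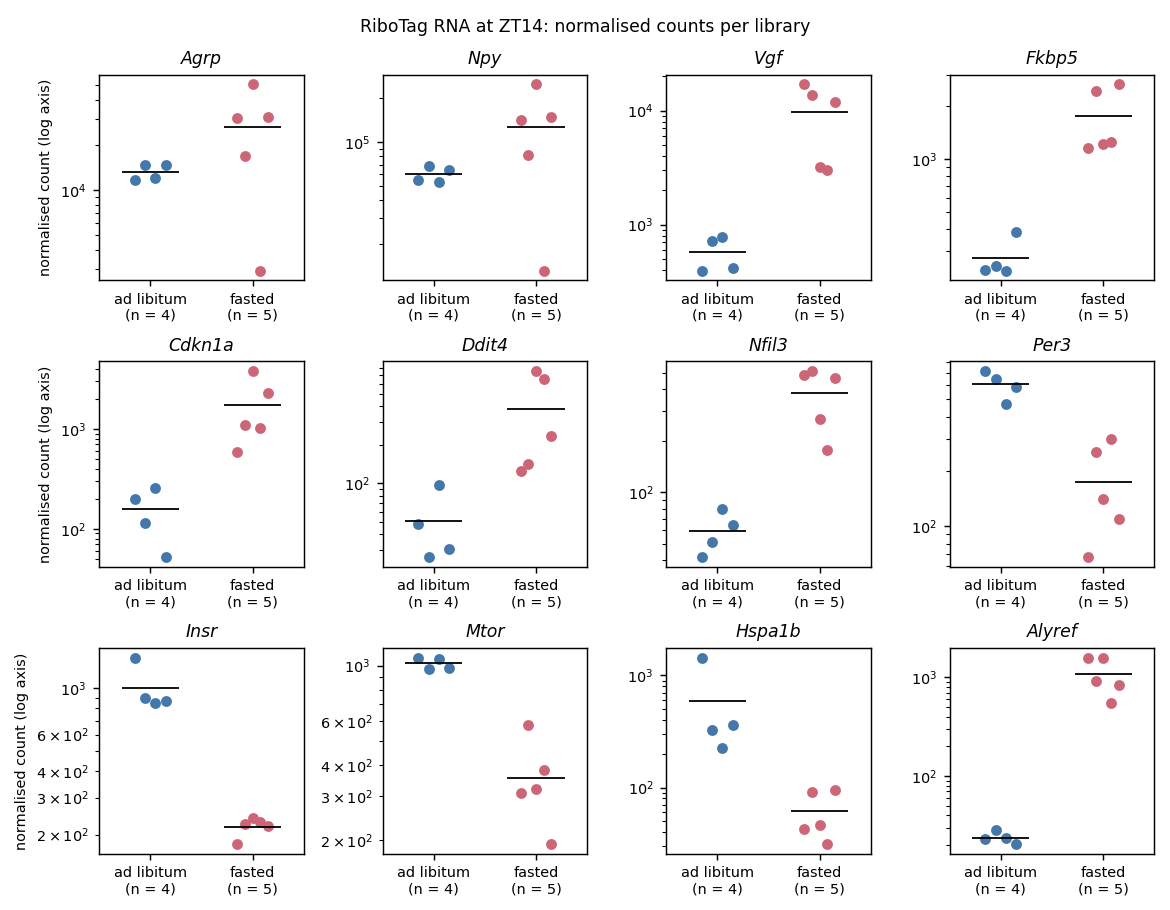
Normalised count (log axis) of 12 genes in each RiboTag library at ZT14, 4 ad libitum (blue) and 5 fasted (red), with the arithmetic mean as a line. Agrp and Npy overlap between the groups through 1 low fasted library, while the other 10 genes do not overlap. Those 10 were all called, and such a choice favours groups that do not overlap. Of all genes tested, 6.12% had all 5 fasted libraries above and 8% had all 5 below.

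Of 20 immediate early and activity genes 3 rose, Jund, Crem and Fosl2, and none fell, beside 4.15% and 1.14% of all genes tested. Jund lay at 57.8, 65, 82 and 63.5 and at 5410, 5134, 2223, 482 and 725 (4.78 ± 0.75, adjusted p = 0.000428), with a ZT5 minus PBS difference of 4.99 and a stretch of 86% GC. Crem, which encodes cAMP-responsive activators and the repressor ICER, lay at 297, 393, 340 and 390 and at 824, 1098, 1149, 336 and 2300. Fasted replicate 4 fell within the ad libitum range and the other 4 were above it. The difference was 1.44 ± 0.40 (adjusted p = 0.0425), and 12 of 20 alternatives lost the call (adjusted p up to 0.125). Fosl2, an AP-1 gene, lay at 64.4, 34.8, 93.7 and 11.7 and at 63, 525, 233, 165 and 987 (2.69 ± 0.75, adjusted p = 0.0433), and 9 of 20 alternatives lost that call (adjusted p up to 0.179). ZT5 minus PBS was -0.41 for Crem and -4.64 for Fosl2. The activity marker Fos (1.02 ± 0.73, adjusted p = 0.483) and Egr1 (1.41 ± 0.73, adjusted p = 0.304) were not called and their groups overlapped.

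In the core clock and clock output list, 1 of 20 members rose and 1 fell, beside 4.15% and 1.14% of all genes tested. Nfil3, which encodes a repressor that binds D-box elements, lay at 41.5, 50.9, 80.1 and 64.2 in ad libitum and at 481, 513, 267, 175 and 468 in fasted libraries. Every fasted value was more than 2 times the highest ad libitum one, and the difference was 2.60 ± 0.51 (adjusted p = 0.00353). Nfil3 holds a stretch of 86% GC and was 1.41 higher in the ZT5 controls. Per3, a period gene of the clock, lay at 717, 647, 467 and 587 in ad libitum and at 67.2, 256, 140, 300 and 110 in fasted libraries. All 5 fasted libraries were below all 4 others. The difference was -1.97 ± 0.47 (adjusted p = 0.0157), and ZT5 minus PBS was 0.66, the opposite sign. Per3 holds a stretch of 82% GC. Per3 lost its call without ad libitum replicate 1 or 2 (adjusted p up to 0.0599). The values of Arntl (-0.36 ± 0.38), Per1 (0.54 ± 0.48), Per2 (-1.21 ± 0.73), Nr1d1 (0.26 ± 0.39), Nr1d2 (-0.60 ± 0.64) and Dbp (1.40 ± 0.67) overlapped between the groups, with adjusted p from 0.262 to 0.788. The Per3 promoter is printed because Nfil3 and Dbp act on D-box elements and Per3 moved. These are the 250 bases before its start in RefSeq on GRCm38.p6 (chr4:151044666-151044915, minus strand, 5′ to 3′), with the D-box letters TTATGTAA in capitals.
Per3: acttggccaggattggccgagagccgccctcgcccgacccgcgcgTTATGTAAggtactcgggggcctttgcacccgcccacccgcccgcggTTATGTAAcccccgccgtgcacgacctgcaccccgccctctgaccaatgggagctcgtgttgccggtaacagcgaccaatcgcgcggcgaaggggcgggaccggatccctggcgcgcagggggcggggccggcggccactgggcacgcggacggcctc
The letters occur 2 times on the coding strand, with first bases 205 and 158 before the start. On either strand they were found in 0.938% of all 32851 RefSeq promoters of 300 bases, in 0.567% of the 13926 promoters of genes tested and in 1 of the 18 promoters of named genes that fell, with none among the 40 promoters of named genes that rose. The E-box letters CACGTG were found in 10% of the promoters of named risers, which were those of Fkbp5, Lamp1, Rab21 and Sirt1, in 5.56% of those of named fallers (Eef2), in 9.46% of those of genes tested and in 7.15% of all promoters. In the same order, the cAMP element TGACGTCA was found in 2.5% (Dapk3), 5.56% (Eef2), 2.84% and 1.79%, and the FoxO element TGTTTAC in 2.5% (Akt1), 0%, 2.48% and 3.65%. These matches are a description of letters in these windows.

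The insulin, IGF and FoxO pathway held 3 of 30 members that rose and 4 that fell, beside 4.15% and 1.14% of all genes tested. Its median was -0.34. The receptor gene Insr lay at 1398, 901, 846 and 865 in ad libitum and at 180, 225, 240, 229 and 219 in fasted libraries. The fasted values were close together, and all lay below every ad libitum value. The difference was -2.17 ± 0.47 (adjusted p = 0.00799) and it was called in all 20 alternatives. ZT5 minus PBS was -2.74. Akt1, the kinase gene downstream of the receptor, lay at 300, 423, 376 and 319 and at 2727, 2771, 1791, 2491 and 2051 (2.73 ± 0.32, adjusted p = 1.72e-05), and its ZT5 minus PBS difference was 1.78. Foxo1, which encodes a factor that Akt keeps out of the nucleus, lay at 295, 375, 301 and 336 and at 1164, 2180, 891, 459 and 1969 (1.82 ± 0.39, adjusted p = 0.00709), with a ZT5 minus PBS difference of -0.31. Akt1 and Foxo1 both hold a stretch over 80% GC, and Insr does not. Akt1 and Foxo1 were also called in all 20 alternatives, correction for local GC content among them.

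The others of that list that fell were Mtor, Tsc2 and Tsc1. Mtor lay at 1076, 973, 1057 and 975 in ad libitum and at 309, 576, 321, 383 and 192 in fasted libraries (-1.60 ± 0.35, adjusted p = 0.00771). Tsc2, which encodes a negative regulator of mTOR, lay at 2406, 2135, 2535 and 2621 and at 745, 1387, 396, 668 and 657 (-1.77 ± 0.37, adjusted p = 0.00528). Its partner Tsc1, named after its values were seen, also fell (-1.61 ± 0.43, adjusted p = 0.0374), while Ddit4, the other inhibitor of mTOR described here, rose. The transcript of Mtor is 8564 and that of Insr 9355 bases long, and the Mtor call was lost after correction for length and GC content (-0.93, adjusted p = 0.0594). ZT5 minus PBS was -0.89 for Mtor and -1.71 for Tsc2.

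In the leptin and JAK-STAT pathway 2 of 24 members rose and none fell, beside 4.15% and 1.14% of all genes tested. The list median was -0.59. Lepr, the leptin receptor, lay at 994, 234, 131 and 509 and at 292, 369, 203, 62.3 and 466 (-0.62 ± 0.76, adjusted p = 0.728), and Socs3, its feedback inhibitor, was not called (-0.91 ± 0.66, adjusted p = 0.487). Jak2, the kinase of the leptin receptor, lay at 113, 81.1, 91.9 and 86.1 and at 228, 438, 611, 570 and 338 (2.15 ± 0.35, adjusted p = 0.000601). Leprotl1, which encodes a protein that limits leptin receptor at the cell surface, rose by less (0.89 ± 0.21, adjusted p = 0.0155) and was not called after correction for local GC content (adjusted p = 0.826) or without ad libitum replicate 3 or 4 (adjusted p = 0.0667 and 0.064). Both hold a stretch of 86% GC, and Jak2 was called in all 20 alternatives, correction for local GC content among them. Ghsr, the ghrelin receptor, was not called (0.34 ± 0.89, adjusted p = 0.89). Of 19 AMPK and energy sensing genes 2 rose, Cab39, which encodes a scaffold of the AMPK-activating kinase LKB1 (2.27 ± 0.37, adjusted p = 0.000557), and the deacetylase gene Sirt1 (2.26 ± 0.52, adjusted p = 0.013). Both hold a stretch over 80% GC, and Sirt1 was not called after correction for it (adjusted p = 0.236) or without ad libitum replicate 2 (adjusted p = 0.0587). Cab39 was called in all 20 alternatives. The ZT5 minus PBS medians were -0.56 for the leptin list and -0.47 for the AMPK list.

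Few translation genes were called. None of 76 cytosolic ribosomal protein genes was called by limma, edgeR or DESeq2, 1 had an unadjusted p under 0.05, and their median of -0.20 was near that of all genes. Without the libraries that stood apart 8 of the 76 fell, among them Rps15a (-1.10 ± 0.22, adjusted p = 0.00534), with a median of -0.45. In that set 3.62% of all genes tested fell, and their median was -0.22. Among 32 translation factors 1 rose and 2 fell, beside 4.15% and 1.14% of all genes tested. Eef2, the translocase of the ribosome, lay at 10663, 8329, 9960 and 10847 in ad libitum and at 4951, 4799, 3082, 3798 and 3461 in fasted libraries (-1.32 ± 0.25, adjusted p = 0.00222). Eef1a1, which brings tRNA to the ribosome and has near-identical pseudogenes, fell by 1.20 ± 0.23 (adjusted p = 0.00267), and its neuronal paralog Eef1a2 rose by 4.18 ± 0.65 (adjusted p = 0.000404). Eef1a2 holds a stretch of 91% GC and the richest stretch of Eef1a1 has 59%. ZT5 minus PBS was -1.59 for Eef2, -0.81 for Eef1a1 and 1.41 for Eef1a2, with a median of 0.17 for the ribosomal protein genes.

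Of 19 cytosolic heat shock genes 2 fell, Hspa1a and Hspa1b, beside 1.14% of all genes tested. Hspa1b, an inducible HSP70 gene, lay at 1441, 324, 227 and 358 in ad libitum and at 43, 90.5, 46.3, 31.1 and 94.7 in fasted libraries, with no overlap (-2.96 ± 0.58, adjusted p = 0.00337). Its near-identical neighbour Hspa1a, with which it can share reads, fell by 2.48 ± 0.51 (adjusted p = 0.0047). ZT5 minus PBS was 0.21 for Hspa1b and 0.63 for Hspa1a, the opposite sign. Of 30 ER folding genes 1 fell, Hyou1 (-2.08 ± 0.57, adjusted p = 0.0425), and 12 of 20 alternatives lost that call (adjusted p up to 0.119). The ER chaperone Hspa5 was not called, at 19657 to 21273 and 8724 to 28722 (-0.08 ± 0.40, adjusted p = 0.949). Of 40 ER translocation and transport genes 2 rose, beside 4.15% of all genes tested. They were Sec63 (1.70 ± 0.30, adjusted p = 0.00128) of the translocation channel and Tmed2 (1.60 ± 0.28, adjusted p = 0.00124) of vesicle traffic, both with a stretch over 80% GC. Sec63 was not called after correction for local GC content (adjusted p = 0.146), while Tmed2 was called in all 20 alternatives. ZT5 minus PBS was -0.01 for Sec63 and 2.89 for Tmed2.

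Fasn, the fatty acid synthase, lay at 5476, 4608, 6438 and 4680 in ad libitum and at 923, 2533, 545, 1344 and 1065 in fasted libraries (-2.22 ± 0.43, adjusted p = 0.00284), and Fasn holds a stretch of 87% GC. In the list of 25 cholesterol and fatty acid synthesis genes 2 fell, beside 1.14% of all genes tested. The list median was -0.52 and the ZT5 minus PBS median -0.72. Without the libraries that stood apart 5 of 25 fell, with the sterol regulator Srebf2 (-1.10 ± 0.23, adjusted p = 0.00845) and its retention factor Insig1 (-0.98 ± 0.23, adjusted p = 0.0154) among them. In that set 3.62% of all genes tested fell. None of 45 oxidative phosphorylation, 26 glycolysis, 23 fatty acid oxidation and 30 proteasome genes was called by limma. The members with an unadjusted p under 0.05 numbered 1, 3, 3 and 3 in that order, edgeR called none, and DESeq2 called 2 in the third list and 1 in the last. Their medians were 0.22, -0.05, 0.00 and 0.40. Of 27 autophagy and lysosome genes 1 rose, beside 4.15% of all genes tested. Lamp1, a lysosomal membrane glycoprotein gene, lay at 576, 565, 572 and 462 and at 9854, 7613, 10641, 8281 and 6916 (3.98 ± 0.32, adjusted p = 1.88e-07), with a ZT5 minus PBS difference of 3.51 and a stretch of 87% GC. It was called in all 20 alternatives. Without the libraries that stood apart 4 of 27 rose, with Ulk2, a kinase gene that starts autophagy (1.47 ± 0.32, adjusted p = 0.0113), among them. In that set 6.38% of all genes tested rose.

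For the lists that follow, 4.15% of all genes tested rose and 1.14% fell. Of 30 calcium, sodium, HCN and TRP channel genes 3 rose and 1 fell. Hcn2, a channel opened by hyperpolarisation, lay at 12.6, 12.9, 19.1 and 13.1 and at 697, 761, 114, 1392 and 646 (5.20 ± 0.63, adjusted p = 2.54e-05). The cation channel gene Trpc1 (2.61 ± 0.58, adjusted p = 0.00916) also rose, and both hold a stretch over 80% GC. Trpm3, a cation channel gene, lay at 1505, 466, 1017 and 1230 and at 86.1, 210, 87.7, 357 and 152 (-2.64 ± 0.62, adjusted p = 0.014), with a ZT5 minus PBS difference of 1.19, and it lost its call without ad libitum replicate 1 or 4 (adjusted p up to 0.0615). Of 35 potassium channel genes 2 rose. Kcnmb4, a beta subunit gene of BK channels, lay between 2.92 and 19.7 in ad libitum and between 53.8 and 292 in fasted libraries (4.02 ± 0.62, adjusted p = 0.000335) and holds no stretch over 80% GC, while Kcnk3, a background channel gene, rose by 1.38 ± 0.36 (adjusted p = 0.0282). Of 16 GABA receptor genes 1, Gabrg3, fell (-1.40 ± 0.38, adjusted p = 0.0386), and of 21 glutamate receptor genes 1, Grik5, rose (2.78 ± 0.48, adjusted p = 0.000972). The vesicle release list held 1 of 30 that rose, Syn2 (2.39 ± 0.36, adjusted p = 0.000252), and 6 of 30 without the libraries that stood apart, among them Rab3b (1.55 ± 0.26, adjusted p = 0.00155). In that set 6.38% of all genes tested rose. Grik5, Syn2 and Kcnk3 hold a stretch of 85% to 87% GC and Gabrg3 one of 82%. ZT5 minus PBS was 1.64 for Kcnmb4, -1.52 for Kcnk3, -1.14 for Gabrg3, 1.64 for Grik5 and 0.67 for Syn2. Gabrg3 lost its call in 12 and Kcnk3 in 7 of 20 alternatives, with adjusted p up to 0.169 and 0.535.

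**Figure D3:**
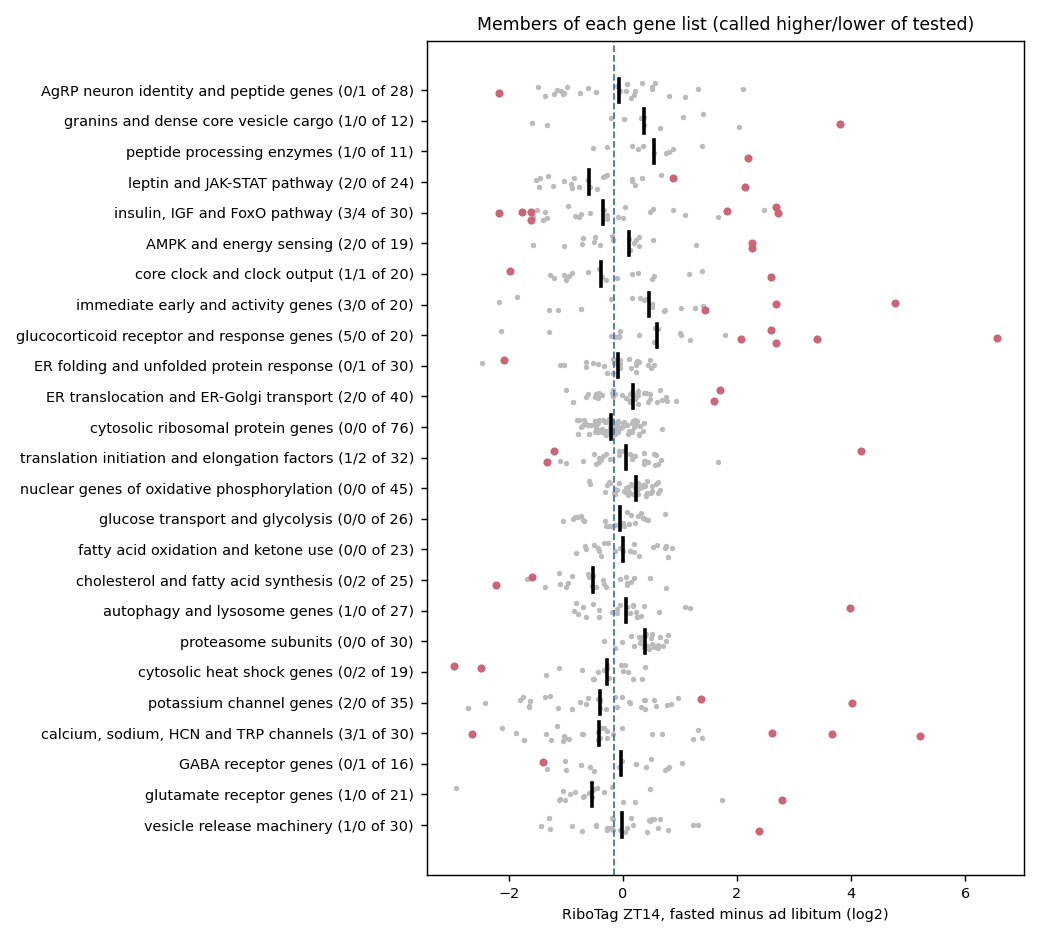
Fasted minus ad libitum difference (log2) at ZT14 of each member of 25 gene lists, called members in red, list medians as black bars and the median of all genes tested (-0.16) as a dashed line. The counts after each name are members called higher and lower of those tested, for example 5 and 0 of 20 for the glucocorticoid list.

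Of the 15 named by the size of their fall, 14 had groups that do not overlap, which a choice by size favours. Of all genes tested, 8% had all 5 fasted libraries below. The 15 lay between 2.63 and 3.58 lower, and 10 were lower in the ZT5 controls as well. They include the receptor gene Notch2 (-3.58 ± 0.80, adjusted p = 0.00997), the matrix genes Col12a1, Lama1, Col6a2, Col16a1 and Tnxb, and the cadherin gene Cdh1. Each of these 7 lost its call in 1 or more of 20 alternatives, from 1 for Notch2 (adjusted p up to 0.0504) to 13 for Col6a2 (adjusted p up to 0.179). Pi4kb, a phosphoinositide kinase gene (-3.10 ± 0.64, adjusted p = 0.0051), Pfas, of purine synthesis (-3.05 ± 0.66, adjusted p = 0.00818), and Lars2, the mitochondrial leucyl-tRNA synthetase gene (-3.02 ± 0.53, adjusted p = 0.00124), were called in all 20 alternatives. Across genes, the difference had a Spearman correlation of -0.30 with transcript length. This describes 9 libraries in which the fast and the library profile cannot be told apart, and genes are not independent replicates.

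Some called genes had the opposite direction in the ZT5 controls, and those named here were chosen after their values were seen. With the opposite sign in ZT5 minus PBS, both with the 2 ZT5 controls and with the second alone (or a value of 0), were 128 of the 641 higher (20%) and 25 of the 176 lower genes (14.2%). These shares were below those of all genes tested, 37.4% of genes with a difference above 0 and 28.8% of those below 0. Of the 128, 22 hold no stretch over 80% GC. Among these were Fkbp5, Cdkn1a, Crem and Fosl2. Nmur2, which encodes a neuromedin U receptor, lay at 25.9, 24.5, 48.1 and 11.7 and at 122, 135, 101, 107 and 243 (2.40 ± 0.64, adjusted p = 0.0352). Prok2, which encodes the peptide prokineticin 2, lay at 1.48, 5.15, 0.62 and 0.73 and at 15.7, 24, 11.3, 26.6 and 37.9 (3.13 ± 0.63, adjusted p = 0.00451). In both, every fasted library was above every ad libitum one, though Prok2 is low. Of the 25 lower genes, Scgn, which encodes a calcium-binding protein of secretory cells, fell from 201, 403, 264 and 433 to 124, 89.2, 145, 48.6 and 117 (-1.65 ± 0.42, adjusted p = 0.026). P2rx2, an ATP-gated channel gene, fell from 27.4, 23.8, 46.9 and 21.9 to 0, 14.6, 0, 5.32 and 2.84 (-3.18 ± 0.83, adjusted p = 0.0311).

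**Figure D4:**
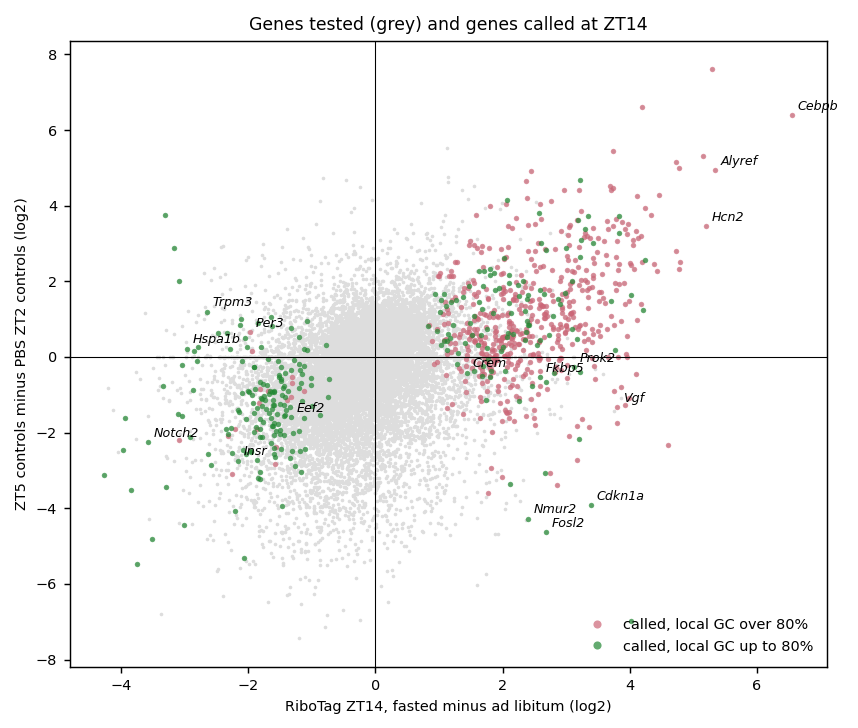
Fasted minus ad libitum difference at ZT14 in RiboTag (horizontal, log2) against the difference of ZT5 controls minus PBS ZT2 controls (vertical, log2) for each gene, with called genes coloured by local GC content. Alyref, Cebpb and Hcn2 lie high on both axes, while Fkbp5 (-0.54), Vgf (-1.33), Cdkn1a (-3.93) and Fosl2 (-4.64) lie below 0 on the vertical axis.

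The ZT14 fast was set beside the ZT2 fast of the same mouse line. At ZT2, 4.08% of genes were higher and 3.81% lower after fasting. Of the 641 genes higher at ZT14, 456 were called higher at ZT2 (71.1% of them and 72.4% of the 630 called at ZT2). Of these 456, 370 hold a stretch over 80% GC. The library profile was also seen at ZT2, where the share of genes more than 2 higher was 10.6% over 80% local GC and 3.1% up to 80%. Alyref was 5.61 and Cebpb 6.53 higher at ZT2. What part of the overlap goes with the fast and what part with the profile was not tested. Of the 176 lower, 114 were called lower at ZT2 (64.8%, and 19.4% of the 589). The ZT2 differences were 4.45 for Vgf, 2.65 for Fkbp5, 3.64 for Cdkn1a, 3.27 for Nfil3 and -2.84 for Insr. No gene differed between the fasts by limma (0% of 15444 called), where 252 had an unadjusted p under 0.05. edgeR called 0 and DESeq2 1. At ZT2 Agrp lay at 4840, 12041 and 20738 in ad libitum and at 40354, 61839, 52946, 124349 and 1488870 in fasted libraries. The last value is from fasted ZT2 replicate 5, which is among the libraries that stood apart. Agrp rose at ZT2 (3.49 ± 0.99, adjusted p = 0.0385) and was not called at ZT14, but the difference between the times was -2.98 ± 1.35 (adjusted p = 1). The same held for Pomc (3.32 ± 0.91 at ZT2, adjusted p = 0.032; -2.47 ± 1.23 between the times, adjusted p = 1).

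Fasting at ZT14 was also measured in GFP-positive cells sorted from NPY::hrGFP mice (8 fasted and 3 ad libitum libraries), which hold the RNA of the cell body rather than RNA on tagged ribosomes. In a fit of all sorted NPY-GFP libraries, with those at ZT2 and the refed ones included, 9.66% of genes were higher and 8.81% lower after fasting at ZT14. Of the 633 higher RiboTag genes tested in both, 372 were called higher in sorted cells (58.8% of them and 26% of the 1433 called there), and of the 176 lower genes 84 were called lower (47.7%, and 6.48% of 1297). The difference between the preparations was tested over all 20 libraries, where 105 genes had a higher RiboTag difference (0.686% of 15315) and 81 a lower one (0.529%). Of these 186 calls, 2 were of genes too low to be tested within sorted cells. The calls rested on single libraries. They numbered 9 or 49 without sorted ad libitum replicate 1 or 2, 121, 317 or 119 without sorted fasted replicate 1, 5 or 7, 78, 90, 89 or 90 without RiboTag ad libitum replicate 1, 2, 3 or 4, and 437 or 112 without RiboTag fasted replicate 3 or 5.

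Genes that rose strongly in sorted cells and not in RiboTag led the lower side. Sphk1, a sphingosine kinase gene, differed by -0.24 ± 0.86 in RiboTag and by 8.48 ± 1.27 in sorted cells (difference -8.72 ± 0.96, adjusted p = 6.58e-05). The GTPase gene Rhoj (0.29 and 6.83), the fibrinogen-like gene Fgl2 (0.09 and 5.57) and Tac1, which encodes substance P (0.74 and 6.63), did likewise, with adjusted p from 6.58e-05 to 0.0122. The heat shock genes Hspa1a and Hspa1b fell in RiboTag and were 0.51 and 0.54 higher in sorted cells (difference -2.99 ± 0.64 and -3.50 ± 0.71, adjusted p = 0.0231 and 0.0179). On the other side stood genes with GC-rich stretches, the corepressor gene Irf2bp2 (1.71 ± 0.36 in RiboTag and -0.87 ± 0.29 in sorted cells, difference adjusted p = 0.0013), Rhoq (1.94 and -0.93), Ranbp9 (3.00 and 0.39), Fam63b (2.04 and -0.36) and Rab12 (3.24 and 1.46), with local GC content of 84% to 94%. After correction for local GC content the RiboTag difference of Irf2bp2 changed sign (-0.18, adjusted p = 0.795) and that of Rhoq was not called (0.87, adjusted p = 0.16). The RiboTag differences of Ranbp9, Fam63b and Rab12 were called in all 20 alternatives, that correction among them. With it the number of calls between the preparations was 72 in place of 186. The astrocyte markers had a median difference of 3.64 in sorted cells and -0.17 in RiboTag, and their part in these differences was not tested.

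**Figure D5:**
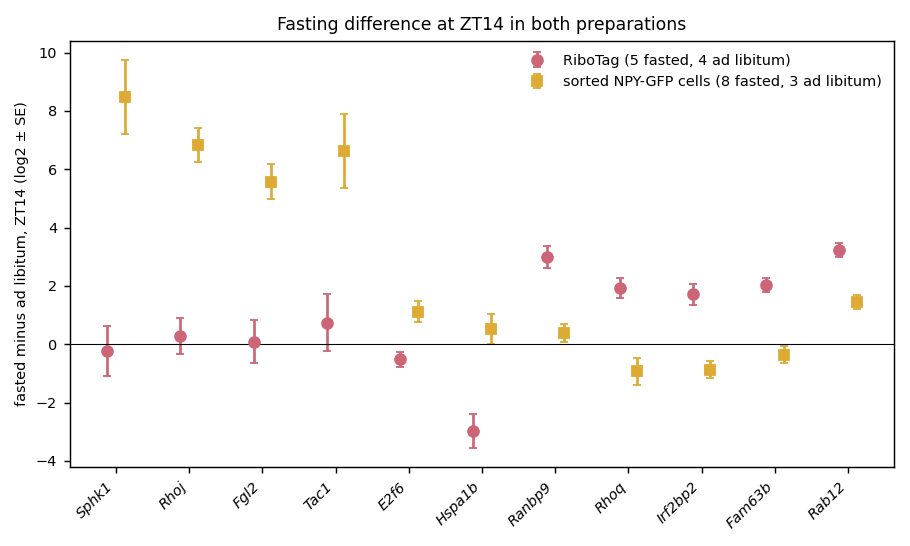
Fasted minus ad libitum difference at ZT14 (log2, bars are standard errors) of 11 genes in RiboTag (circles) and in sorted NPY-GFP cells (squares). Sphk1, Rhoj, Fgl2 and Tac1 lie near 0 in RiboTag and between 5.57 and 8.48 in sorted cells, and Hspa1b lies below 0 in RiboTag alone.

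In GENCODE M21 on GRCm38 (mm10), Vgf lies on chromosome 5 (137026392 to 137033351), Fkbp5 on chromosome 17 (28399094 to 28517527), Cdkn1a on chromosome 17 (29090976 to 29100727), Nfil3 on chromosome 13 (52967209 to 52981073), Per3 on chromosome 4 (151003652 to 151044665), Insr on chromosome 8 (3122061 to 3279617) and Hspa1b on chromosome 17 (34956436 to 34959238). Of the 116 named genes 44 overlap a gene on the other strand and 7 one on the same strand, and whether reads were counted by strand is not given in the sources used here.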

How the data were processed

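RNA was immunoprecipitated with tagged ribosomes, purified with the Qiagen RNeasy Micro kit and amplified with SMART-seq v4 before Nextera XT library preparation, per the labels' protocols. The submitters' processing notes name STAR 2.5.1, featureCounts, Subread, DESeq, DESeq2, R 3.5.1 and mm10, without roles. The deposited signal values are read counts per gene that the authors divided by a size factor of each library; all values of the 17 RiboTag libraries came out as whole reads (within 0.1) when this was undone. Strand setting and read length are not given in the sources used here. SMART-seq v4 with Nextera XT reads have no molecular identifiers, so precision is that of library replicates.

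From the deposited table, genes reaching 10 in 3 or more libraries were kept. limma 3.58.1 (R 4.3.3; trend) was fitted on log2(value + 1) to all 17 RiboTag libraries in 4 groups, with Benjamini-Hochberg adjustment and a threshold of 0.05. RiboTag minus sorted was fitted over 20 ZT14 libraries. Differences and calls within sorted cells came from a fit of all NPY-GFP libraries, with those at ZT2 and the refed ones included. Among them, ad libitum ZT2 replicate 4 did not come out as whole reads (35.2% of its values did). Depth and detected genes were compared by an exact permutation test. edgeR 4.0.16 and DESeq2 1.42.0 on the recovered reads, another pseudocount, no filter, TMM, library weights, length and GC correction, a replicate block, a fit of ZT14 libraries alone and leaving out each library were alternatives. Correction for local GC content and leaving out fasted replicates 3 and 4 at ZT14 and 3 and 5 at ZT2 were added after seeing the data. The fits were tested on simulated data. Transcript features came from GENCODE M21, in which 20929 symbols matched directly, 1918 by an older symbol and 490 not at all. Named genes were the 15 with the largest change in each direction (mean log2 value of at least 5), a set list, up to 4 called members of each gene list and up to 5 in each direction of the difference tests. Members and gene lists were chosen with earlier results of these data known. Results for some named genes are not reported here.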

Additional observations from a re-analysis of the deposited data

Results flagged for a closer look

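Of 232 gene and group combinations examined, 11 had 1 library far from the others of its group, where chance gives about 1 in 20. In ad libitum replicate 3 the glial genes Fgfr3 (4183, against 952.9 to 1037 in the other libraries), Slc1a2 (5376, against 1318 to 1604) and Gpr17 (1049, against 150.7 to 205.8) stood high, as did Hcn2 (19.11, against 12.59 to 13.13), and Hspa5 stood low (19657, against 21062 to 21273). In ad libitum replicate 1 Insr was high (1398, against 845.8 to 900.7) and Vstm2l low (14.07, against 17.38 to 17.88). In ad libitum replicate 4 Fkbp5 was high (384.5, against 233 to 248.5) and Lamp1 low (461.9, against 565.3 to 576). In fasted replicate 3 Hyou1 (112.7, against 480.9 to 759.4) and Pi4kb (15.03, against 166.7 to 246.8) were low.

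The fasting difference at ZT14 differed between RiboTag and sorted cells for 20 named genes by limma's test of the difference. RiboTag minus sorted was negative for Sphk1 (-8.719), Rhoj (-6.533), Tac1 (-5.891), Fgl2 (-5.48), Trpm3 (-4.368), Hspa1b (-3.499), Hspa1a (-2.988) and E2f6 (-1.639). It was positive for the elongation factor gene Eef1a2 (2.932) and the GTPase genes Rhoq (2.868), Rab21 (2.244) and Rab12 (1.787). It was also positive for Ranbp9 (2.61), Irf2bp2 (2.585), Syn2 (2.431), Gsk3a (2.406), Fam63b (2.4), Sirt1 (2.378), Fam108c (2.342) and Fam108b (1.967).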

How the results depend on the processing

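Against 641 higher and 176 lower genes, TMM gave 102 lower, DESeq2 999 and 487, library weights 1189 and 956, ZT14 libraries alone 309 lower, and leaving out the libraries that stood apart 541 lower. Without 1 library each, higher genes ranged from 507 to 731 and lower genes from 43 to 295. The test of ZT14 minus ZT2 called 0 in each leave-one-out fit and 1 by DESeq2. RiboTag minus sorted called 186 genes, against 996 by DESeq2, 1366 with library weights, 468 with length and GC correction, 72 with local GC correction, 315 without the libraries that stood apart, and 9 to 437 without 1 library each. Irf2bp2 changed sign with local GC correction (-0.1836, adjusted p = 0.795), where limma called 484 of the 817 genes again. The causes were not tested. The median difference of all genes was -0.16 by limma and -0.04 by edgeR. Of 71 called named genes, 46 were called in all 20 alternatives.

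Across genes, the deviations of same-numbered ZT14 libraries from their group means correlated at -0.229, 0.147, 0.101 and -0.102. The best fasted match of ad libitum libraries 1, 2, 3 and 4 was number 5, 1, 4 and 1. So few values cannot settle whether the numbers pair the libraries. With a replicate block, 629 genes were higher, 152 lower, 0 differed between times and 176 between preparations.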
